A study of Mus musculus with 18 samples.

Results

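The microglial genes examined here are 8 transcripts that mark the resident macrophages of the brain, namely Csf1r, Ctss, Cx3cr1, C1qa, C1qb, Aif1, Tyrobp and Trem2. Every probe set annotated to just 1 of these symbols was taken, which gave 14 of the 22690 probe sets on the array, for 8 of its 12394 singly annotated genes. Csf1r and C1qb had 3 probe sets each, Cx3cr1 and Trem2 had 2 each, and the other 4 genes had 1 each. Of the 14, 12 passed a filter on low values (log2 expression over 4 on 3 arrays or more), as did 12674 probe sets on the whole array. The 12 represent all 8 genes. The second probe sets of Cx3cr1 (1450019_at) and Trem2 (1421226_at) did not pass.

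The series measured striatum, including the nucleus accumbens, in littermate mice 10 to 20 weeks old, with 1 array per animal. Mutant mice, in which CaMKIV is lost according to the study's title, received 25 mg/kg cocaine (6 animals) or saline (3 animals). Control littermates likewise received 25 mg/kg cocaine (6 animals) or saline (3 animals), and tissue was taken 1 hour after the intraperitoneal injection in all 4 groups. All animals were caged singly and handled for 5 days beforehand. The allele and the cells it affects are not stated in the labels. Groups were taken from the sample titles, since the description line matched the title in both respects for 0 of 18 samples. In the titles 12 animals carry Arabic numbers, 3 from each group, and 6 carry Roman numbers, 3 mutants and 3 controls that all received cocaine, with no word on what the numbering means. Taken in order, the Arabic numbers form blocks of 4 with 1 animal of each group. The Roman numbers form pairs of 1 mutant and 1 control.

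Microglia depend on signalling through the CSF1 receptor for survival, survey the tissue with motile processes, and sense neuronal fractalkine through CX3CR1. They are the main source of C1q in the brain, clear debris through receptors such as TREM2 that signal by way of the adaptor DAP12 (the product of Tyrobp), and degrade engulfed material in lysosomes rich in cathepsins. Cocaine acts on neurons by blocking the dopamine transporter, and CaMKIV, a kinase switched on by calcium-bound calmodulin, acts on transcription through the factor CREB.

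Upstream sequence was available for 5 of the 8 genes in a RefSeq promoter table of build GRCm38.p6. The 250 bases before the start are given here for 3 of them. They are shown because they spanned a range of correlation with C1qa over 12 animals (r of 0.84 for C1qb, 0.56 for Aif1 and 0.12 for Trem2, as deviations from group means), and no test set them apart. Capitals mark AGGAAG, the core bound by the myeloid factor PU.1 and other ETS factors, and TGACG, the core of the cAMP response element bound by CREB, on either strand.
C1qb, chr4:136886201-136886450, strand minus: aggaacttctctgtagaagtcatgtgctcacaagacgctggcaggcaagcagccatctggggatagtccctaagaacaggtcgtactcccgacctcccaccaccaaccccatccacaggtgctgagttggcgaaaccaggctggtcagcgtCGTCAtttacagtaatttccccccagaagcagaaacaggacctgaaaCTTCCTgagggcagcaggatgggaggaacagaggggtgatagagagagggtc
Aif1, chr17:35176053-35176302, strand minus: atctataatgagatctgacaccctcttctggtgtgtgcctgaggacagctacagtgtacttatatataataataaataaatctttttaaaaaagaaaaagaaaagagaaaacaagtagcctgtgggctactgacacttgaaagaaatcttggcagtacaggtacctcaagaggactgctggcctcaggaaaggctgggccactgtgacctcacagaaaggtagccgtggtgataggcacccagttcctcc
Trem2, chr17:48346151-48346400, strand plus: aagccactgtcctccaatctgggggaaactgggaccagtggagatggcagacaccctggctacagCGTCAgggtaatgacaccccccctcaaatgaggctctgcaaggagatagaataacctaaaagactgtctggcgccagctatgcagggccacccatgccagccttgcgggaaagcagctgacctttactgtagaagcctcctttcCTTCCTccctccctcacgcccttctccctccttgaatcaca
In the C1qb sequence the AGGAAG match begins at position -52 and the TGACG match at position -99, counted back from the start of the transcript, and both lie on the other strand (CTTCCT and CGTCA). In the Trem2 sequence the matches begin at positions -41 and -185, again on the other strand. The Aif1 sequence holds neither. AGGAAG occurred in 29.5% and TGACG in 17.8% of the 32851 promoter windows of the same length. The longer PU.1 sequence GAGGAAGT, which contains AGGAAG and was present in 2.44% of windows, and the full cAMP response element TGACGTCA, which contains TGACG and was present in 1.55%, matched none of the 5 members' windows. Ctss (chr3:95526536-95526785) and Cx3cr1 (chr9:120068297-120068546) held none of these 4 motifs. A match is a description of the sequence alone.

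Medians of the 18 arrays ran from 4.98 to 5.19. Camk4 itself, the targeted gene, had 3 probe sets. Camk4 probe set 1426167_a_at ran from 6.85 to 7.69 in mutant cocaine arrays against 7.52 to 7.76 in control cocaine arrays, and from 7.14 to 7.47 in mutant saline arrays against 7.59 to 7.72 in control saline arrays. Its mutant minus control difference averaged over treatments was -0.37 ± 0.09 (SE) on the log2 scale, with an adjusted p of 0.611 in limma. Probe set 1421941_at differed by -0.49 ± 0.27 (adjusted p = 0.679), and 1452572_at lay near 2.0, under the filter. Whether these probes lie in the disrupted part of the gene is not stated in the labels. Mutant cocaine replicate 5, a Roman-numbered array, held the highest or lowest value of all 18 arrays for 45.1% of probe sets above the filter, against 4.58% to 25.4% for the other 17. Its actin signal at the 3' end exceeded that at the 5' end by 3.59 log2 units, against 1.57 to 2.55 in the other arrays, a difference used to judge RNA integrity and labelling. It is included below, and selected results are also given without it. A value given only with this array may also depend on it.

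None of the 12 microglial probe sets passed the threshold for cocaine or for the Camk4 mutation, an adjusted p under 0.05 in limma over all 12674 probe sets. This held for all 7 comparisons. In 3 of them cocaine was set against saline (mutant mice, control mice, and both averaged), in 3 the mutants were set against controls (cocaine arrays, saline arrays, and both averaged), and the last was the difference between the genotypes' cocaine responses. The averaged cocaine differences ran from -0.02 to 0.20 and the averaged genotype differences from -0.24 to 0.13, all on the log2 scale. Outside Trem2 and Cx3cr1, which were the least precise, the 95% intervals of the averaged cocaine differences lay between -0.20 and 0.38. The largest cocaine estimates were in C1qb and Tyrobp, whose means were above those of saline in mutant mice without passing the threshold. In bulk tissue, fewer cells of a type and less RNA per cell cannot be told apart.

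For cocaine against saline in control mice, 0 of 12 passed, against 0.11% of all probe sets, and 0 had an unadjusted p under 0.05, against 2.6%. In mutant mice 0 passed, against 0.0473%, and 2 (C1qb and Tyrobp) had an unadjusted p under 0.05, against 6.95%. Averaged over genotypes 0 passed, against 0.221%, and 1 (Tyrobp) had an unadjusted p under 0.05, against 5.09%. The median cocaine difference of the 12 was 0.04 in control mice, 0.11 in mutant mice and 0.08 on average, against medians near 0 over all probe sets tested.

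In the genotype comparisons no probe set on the array passed, so the background was 0% each time. After saline, 1 member (C1qb) had an unadjusted p under 0.05, against 2.76% of all probe sets. After cocaine it was 1 member (Tyrobp), against 11.6%. Averaged over treatments it was 0 members, against 7.13%. For the interaction it was 1 member (C1qb), against 2.68%. The members' medians were -0.08 after saline, -0.00 after cocaine, -0.08 on average and 0.08 for the interaction. The 12 probe sets were read on the same arrays and several share a gene, so they are not independent replicates of a shift.

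For Roman- against Arabic-numbered arrays 0 of 12 passed, against 6.16% of all probe sets, and 0 had an unadjusted p under 0.05, against 24.4%. No saline animal has a Roman number, so the estimate of averaged cocaine effects comes from the other 12 arrays.

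**Figure D1:**
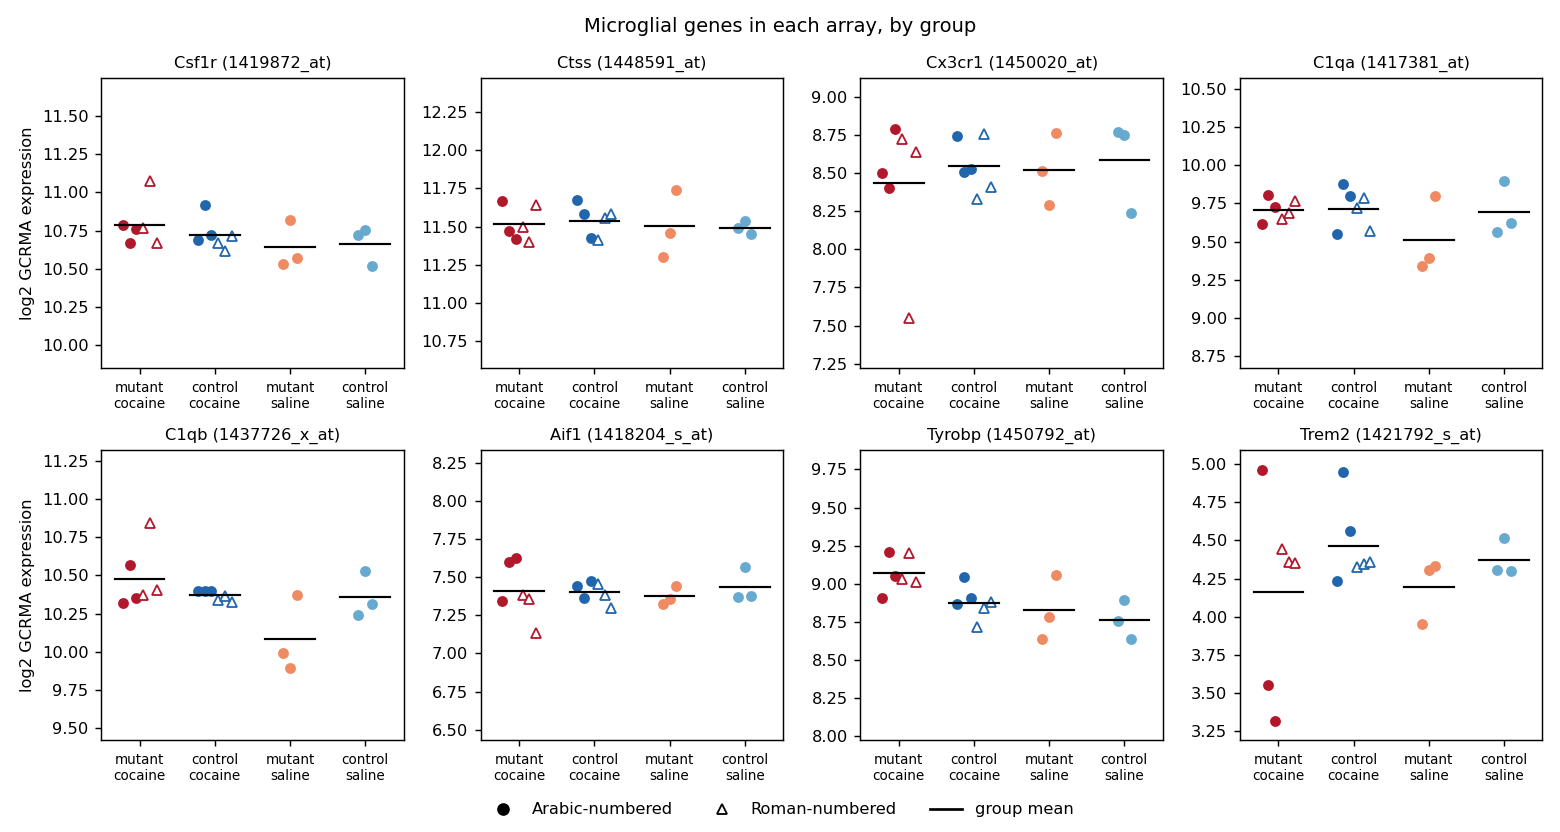
Log2 GCRMA expression (vertical axes, each of its own range) of the brightest probe set of each of the 8 microglial genes in every array, by group, with a line at each group mean. Filled circles are Arabic-numbered and open triangles Roman-numbered animals. C1qb is lowest in 2 mutant saline animals, and 1 mutant cocaine array lies far below the others for Cx3cr1.

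Csf1r encodes the receptor for the growth factors CSF1 and IL-34. Its brightest probe set, 1419872_at, had a lowest, median and highest value of 10.67, 10.76 and 11.08 in mutant cocaine arrays, against 10.62, 10.70 and 10.92 in control cocaine arrays. The mutant saline values were 10.53, 10.57 and 10.82, against 10.52, 10.72 and 10.75 in control saline arrays. All 4 groups overlapped, and the highest value belonged to mutant cocaine replicate 5. The averaged cocaine minus saline difference was 0.11 ± 0.08 (SE, adjusted p = 0.859 in limma), and the averaged mutant minus control difference 0.02 ± 0.07 (adjusted p = 0.921). The other probe sets of Csf1r, 1419873_s_at and 1423593_a_at, ran from 9.10 to 9.61 and from 8.40 to 8.95 over all arrays. Their averaged cocaine differences were 0.09 ± 0.08 and 0.06 ± 0.08, and their averaged genotype differences 0.07 ± 0.07 and -0.10 ± 0.07.

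Cx3cr1 encodes the fractalkine receptor. Its probe set 1450020_at had values of 7.55, 8.57 and 8.79 (lowest, median and highest) in mutant cocaine arrays, against 8.33, 8.52 and 8.76 in control cocaine arrays. Mutant saline arrays had 8.29, 8.51 and 8.76, against 8.24, 8.75 and 8.77 in control saline arrays. The single value below 8.24 was that of mutant cocaine replicate 5. With all arrays the mutant minus control difference after cocaine was -0.11 ± 0.17 (SE, adjusted p = 0.772 in limma). Without that array it was 0.06 ± 0.12 (adjusted p = 0.924), so the sign rested on 1 animal. The averaged cocaine minus saline difference was 0.03 ± 0.17. The second probe set of Cx3cr1 lay between 2.26 and 4.26 and was not tested.

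C1qa and C1qb encode chains of C1q, the recognition molecule of the classical complement pathway, which tags synapses and debris for removal. C1qa had 9.62, 9.71 and 9.81 (lowest, median and highest) in mutant cocaine arrays, against 9.55, 9.75 and 9.88 in control cocaine arrays. It had 9.34, 9.39 and 9.80 in mutant saline arrays, against 9.56, 9.62 and 9.90 in control saline arrays. The mutant saline group held both the 2 lowest values of all 18 and 1 value within the upper range of the cocaine arrays. The C1qa cocaine minus saline difference was 0.22 ± 0.11 in mutant mice (SE, adjusted p = 0.660 in limma) and 0.04 ± 0.11 in control mice.

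C1qb probe set 1437726_x_at, an _x_at set whose probes may also match other transcripts, had 10.32, 10.39 and 10.85 in mutant cocaine arrays, against 10.33, 10.38 and 10.40 in control cocaine arrays. The mutant saline values were 9.89, 9.99 and 10.37, against 10.24, 10.31 and 10.53 in control saline arrays. Mutant saline replicates 1 and 2 thus lay below every other array, while replicate 3 lay among them. The control cocaine arrays were the tightest, with an SD of 0.03 against 0.20 in mutant cocaine arrays.

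Within mutant mice this C1qb probe set was higher after cocaine than after saline by 0.38 ± 0.12 log2 units, which is 1.30-fold. The limma p was 0.00709 before and 0.660 after adjustment. Without mutant cocaine replicate 5 the difference was 0.34 ± 0.10 (adjusted p = 0.142). After saline, the mutant minus control difference was -0.28 ± 0.13 (unadjusted p = 0.0491, adjusted p = 1.00). The cocaine response of mutant minus that of control mice, the interaction, was 0.39 ± 0.16 (unadjusted p = 0.0281, adjusted p = 0.992). These 3 comparisons share the mutant saline animals.

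The other C1qb probe sets gave smaller values. In mutant mice the cocaine minus saline difference was 0.21 ± 0.11 for 1434366_x_at and 0.06 ± 0.12 for 1417063_at, and the interaction was 0.20 ± 0.14 and 0.13 ± 0.16. After saline the mutant minus control differences were -0.18 ± 0.11 and -0.23 ± 0.13. The adjusted p of both sets was 0.660 or more in these contrasts. The cocaine differences and interactions of both sets include mutant cocaine replicate 5 and are not given without it. Relative to the mean of the other 2 Roman-numbered mutants, that array differed by 0.46 in 1437726_x_at, 0.24 in 1434366_x_at and -0.48 in 1417063_at. Its part in the gap between the probe sets was not tested.

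Tyrobp encodes DAP12, the adaptor that carries signals from TREM2 and related receptors. It had 8.91, 9.04 and 9.21 in mutant cocaine arrays, against 8.72, 8.87 and 9.05 in control cocaine arrays. The mutant saline values were 8.64, 8.78 and 9.06, against 8.64, 8.76 and 8.90 in control saline arrays. Mutant cocaine had the highest mean, 9.07 ± 0.12 (SD, n = 6), followed by control cocaine with 8.88 ± 0.11 (n = 6). All mutant cocaine values lay just above all control saline values, and every other pair of groups overlapped. Mutant cocaine and control saline animals differ in both genotype and treatment. The share of all probe sets that separate these groups was not counted, so the separation cannot be set against a background. The averaged cocaine minus saline difference of Tyrobp was 0.20 ± 0.08 (unadjusted p = 0.0198, adjusted p = 0.859 in limma). In mutant mice the cocaine minus saline difference was 0.27 ± 0.10 (unadjusted p = 0.0200, adjusted p = 0.660). After cocaine, the mutant minus control difference was 0.19 ± 0.08 (unadjusted p = 0.0250, adjusted p = 0.427), and 0.16 ± 0.08 without mutant cocaine replicate 5 (adjusted p = 0.668). It was 0.12 ± 0.11 in the Arabic-numbered arrays alone (adjusted p = 0.866).

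Trem2 encodes a lipid-sensing receptor of microglia. It was close to the filter, with 3.32, 4.36 and 4.96 in mutant cocaine arrays, against 4.23, 4.35 and 4.95 in control cocaine arrays, for probe set 1421792_s_at. The mutant saline values were 3.95, 4.31 and 4.33, against 4.30, 4.30 and 4.51 in control saline arrays. The mutant cocaine arrays spanned the whole range of the series. The averaged differences were -0.02 ± 0.23 for cocaine minus saline and -0.24 ± 0.20 for mutant minus control, with 95% intervals of -0.50 to 0.46 and -0.65 to 0.18. The second probe set of Trem2 lay between 2.74 and 2.92 in all 18 arrays, and GCRMA compresses such dim values.

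Ctss encodes cathepsin S, a lysosomal protease that also cleaves fractalkine. It had 11.40, 11.48 and 11.67 in mutant cocaine arrays, against 11.41, 11.57 and 11.67 in control cocaine arrays. It had 11.30, 11.46 and 11.74 in mutant saline arrays, against 11.45, 11.49 and 11.53 in control saline arrays. Its group means lay within 0.05 log2 units of each other. The averaged differences were 0.04 ± 0.07 for cocaine minus saline (95% interval -0.11 to 0.19) and -0.01 ± 0.06 for mutant minus control (-0.14 to 0.12).

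Aif1 encodes IBA1, an actin-binding calcium-binding protein used to stain microglia. It had 7.13, 7.37 and 7.63 in mutant cocaine arrays, against 7.30, 7.41 and 7.48 in control cocaine arrays. It had 7.32, 7.36 and 7.44 in mutant saline arrays, against 7.37, 7.38 and 7.56 in control saline arrays. All 4 groups overlapped, and the averaged differences were 0.07 ± 0.07 for cocaine minus saline and -0.03 ± 0.06 for mutant minus control.

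**Figure D2:**
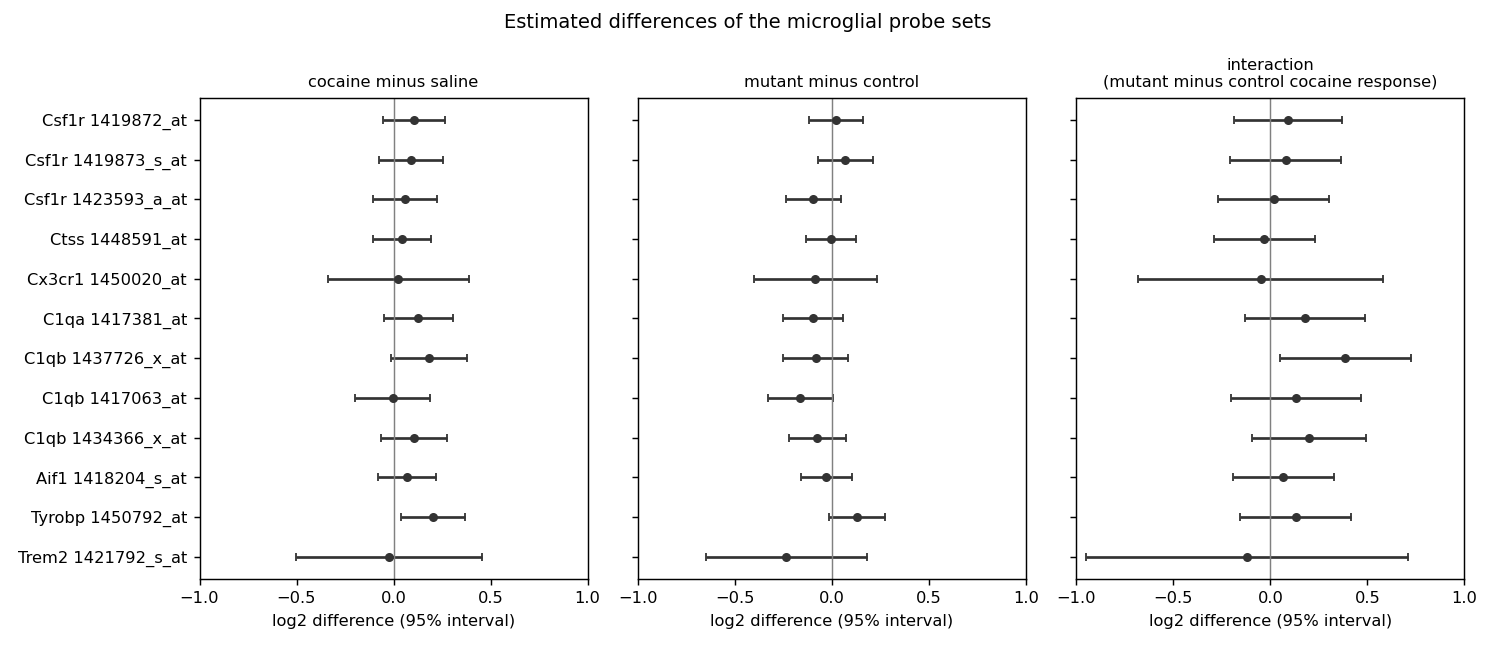
Estimated log2 differences (points) with 95% intervals (bars) of the 12 microglial probe sets from the limma fit, for cocaine minus saline averaged over genotypes, mutant minus control averaged over treatments, and the interaction. The intervals are unadjusted, and those of Tyrobp for cocaine (0.04 to 0.37) and of C1qb 1437726_x_at for the interaction (0.05 to 0.72) leave out 0.

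Csf1r and C1qb had 3 probe sets above the filter each, so that readings of 1 gene could be compared, and these did not always move together. In control cocaine replicate 4, Csf1r was the highest of its group by 1423593_a_at (8.95) and the lowest by 1419873_s_at (9.14). Over the 12 Arabic-numbered arrays, deviations from the group means of the 3 C1qb probe sets correlated at r of 0.77, 0.81 and 0.86, and those of the 3 Csf1r probe sets at 0.52, 0.60 and 0.69. In mutant cocaine replicate 5 they moved in opposite directions. Relative to the mean of mutant cocaine replicates 4 and 6, Csf1r was 0.36 and 0.28 higher by 1419872_at and 1419873_s_at and -0.37 by 1423593_a_at. C1qb differed by 0.46 and 0.24 in 1437726_x_at and 1434366_x_at and by -0.48 in 1417063_at. Cx3cr1 differed by -1.13. C1qa, by contrast, differed by -0.02 and Aif1 by 0.09. This array was the one with the widest actin 3' to 5' difference, and the part of that difference in these values was not tested.

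**Figure D3:**
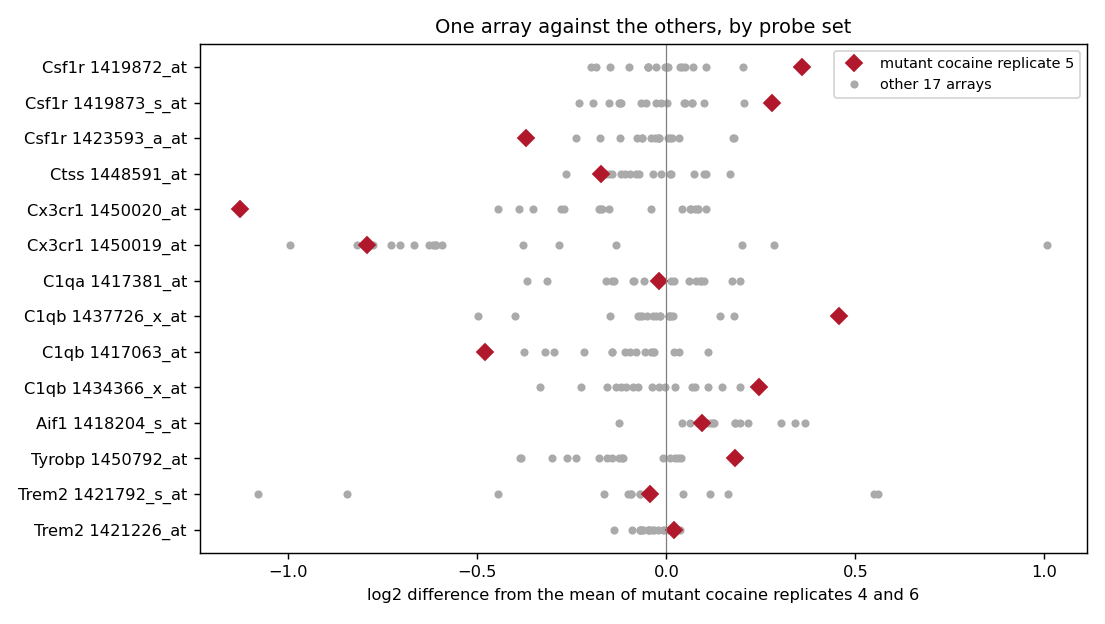
Log2 difference of each array from the mean of mutant cocaine replicates 4 and 6 (horizontal axis) for the 14 microglial probe sets. Mutant cocaine replicate 5 (diamonds) lies outside the other 17 arrays (grey points) for all 3 Csf1r probe sets, above for 2 and below for 1, above them for C1qb 1437726_x_at and 1434366_x_at, and far below them for Cx3cr1 1450020_at. That array lay outside the others for 45.1% of all probe sets above the filter, so such values cannot be called particular to these genes.

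Covariation across animals was then examined, which the group means do not show. Each gene was represented by its brightest probe set, group means were subtracted, and the 28 gene pairs were correlated over the 12 Arabic-numbered arrays, which hold 3 animals of each group. Of the 28 pairs 1 passed the threshold, C1qa with Tyrobp. They correlated at r = 0.87 (exact two-sided permutation within groups, p = 0.00154, adjusted over 28 pairs 0.0432) and at Spearman's rho = 0.80 (exact permutation p = 0.00694, adjusted 0.0972). Without the 2 animals farthest from the median of C1qa, r was 0.76. With each animal left out in turn r was 0.78 to 0.92, given with no test, since with 11 animals a single pair can reach no adjusted p below 0.0648. Within the 6 Arabic-numbered cocaine arrays r was 0.79, and within the 6 saline arrays 0.92.

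**Figure D4:**
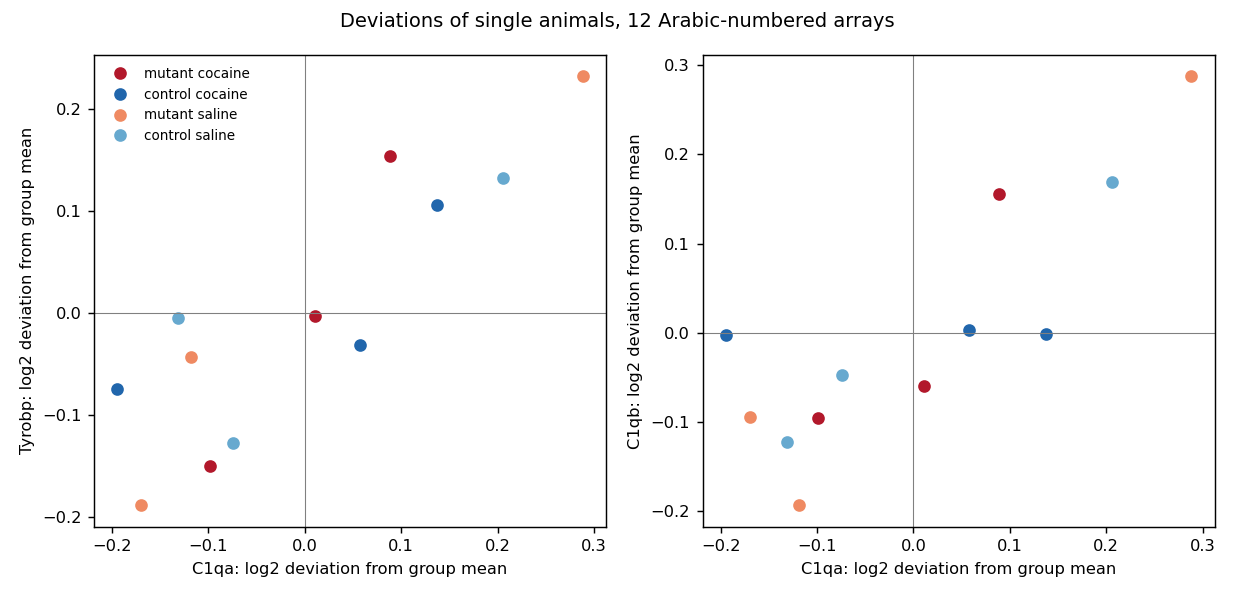
Log2 deviation of each Arabic-numbered animal from its group mean, for C1qa (horizontal) against Tyrobp (left) and C1qb (right), coloured by group. Points rise together in both panels, with r = 0.87 and 0.84 over 12 animals, and mutant saline replicate 3 lies at the upper right of both.

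The other pairs among these genes did not pass. C1qa and C1qb correlated at r = 0.84 (rho = 0.78, exact permutation p = 0.0139, adjusted 0.194) and C1qb and Tyrobp at r = 0.80 (rho = 0.69, exact permutation p = 0.0394, adjusted 0.259). Aif1 had r of 0.56 to C1qa, 0.61 to C1qb and 0.62 to Tyrobp, none past the threshold. Csf1r, by its brightest probe set 1419872_at, had r of 0.11 to C1qa and -0.29 to C1qb, neither past the threshold. Its other probe sets, 1419873_s_at and 1423593_a_at, correlated with 1419872_at at 0.69 and 0.60. They were not each set against the other genes, so the low values hold for 1419872_at alone. Trem2 had r of -0.07 to Tyrobp, its signalling partner, and -0.63 to Aif1 (exact permutation p = 0.209, adjusted 0.651). These values joined opposite signs, since after cocaine (6 arrays) Trem2 had r of -0.42 to Tyrobp and -0.96 to Aif1, while after saline (6 arrays) it had 0.83 and 0.77. In mutant cocaine replicate 1 Trem2, a dim probe set, lay 1.02 above its group mean. Over all 28 pairs 21 had r above 0, 3 had r of 0.7 or more and the median r was 0.34. Over all 80308801 pairs of probe sets above the filter the median r was 0.01, 51.1% were above 0 and 2.70% were at 0.7 or more. Leaving out mutant saline replicate 3 brought the median of the 28 pairs to 0.06. By the brightest probe sets that animal was the highest of its 3 in 7 of the 8 genes, all but Csf1r. By Csf1r 1419873_s_at it was the highest too, at 9.40. Control saline replicate 2 was likewise the highest of its group in 7 of the 8 genes, and leaving it out gave a median of 0.26. Without mutant saline replicate 3, C1qa and Tyrobp correlated at r = 0.78.

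In the 6 Roman-numbered cocaine arrays the median r of the 28 pairs was -0.12 and 12 pairs were above 0. There C1qa and Tyrobp had r = -0.34, C1qa and C1qb -0.0054, and C1qb and Tyrobp 0.77. Without mutant cocaine replicate 5 the median over the remaining 5 arrays was 0.06, and the same pairs had r of -0.42, 0.92 and -0.09. These values are given with no test, and whether the 2 series differ was not tested. They hold for the brightest probe sets alone, and C1qb 1437726_x_at had r of -0.89 to C1qb 1417063_at in the 6 arrays.

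**Figure D5:**
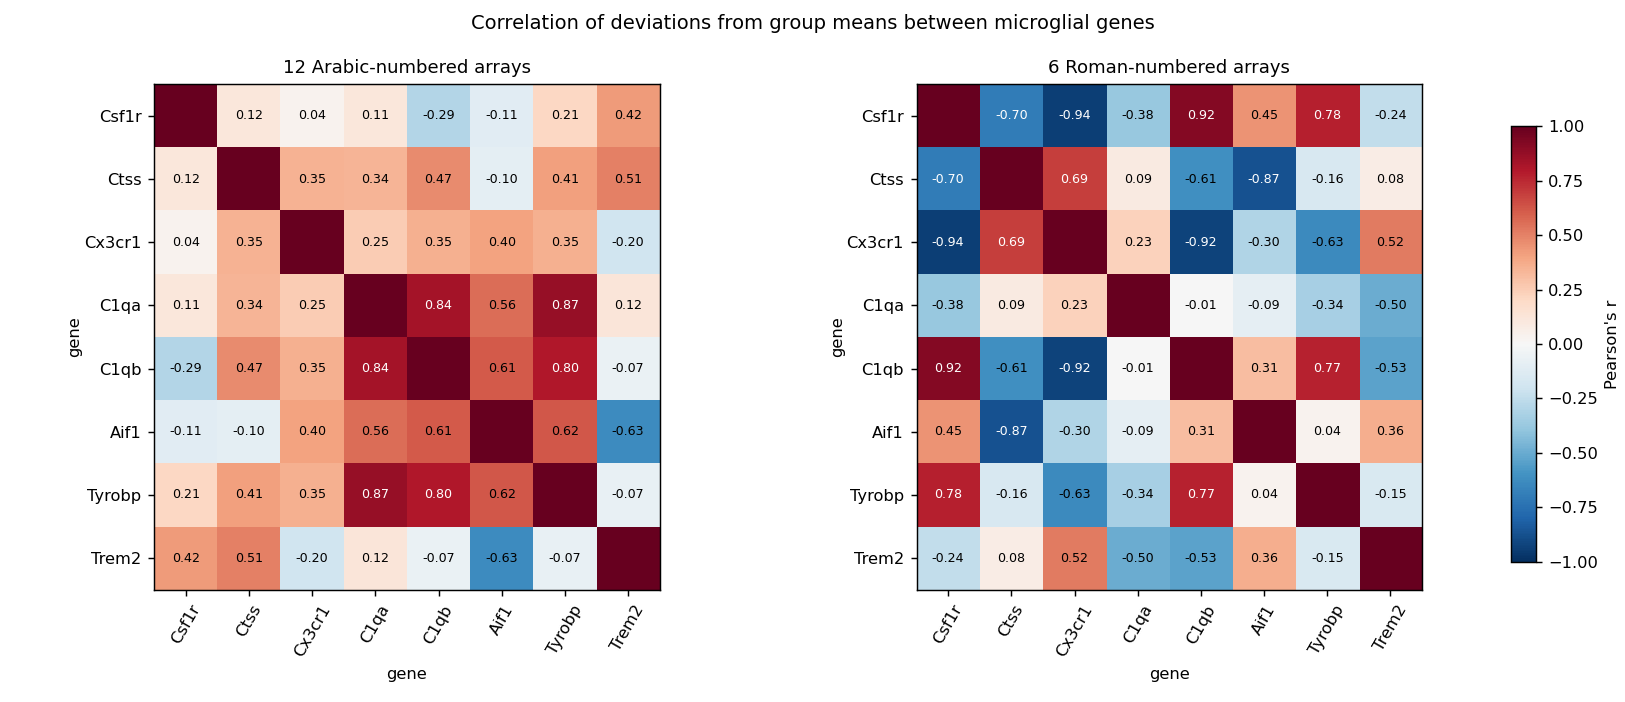
Pearson's r between deviations from group means for the 28 pairs of microglial genes (rows and columns), in 12 Arabic-numbered arrays (left) and 6 Roman-numbered arrays (right). On the left the block of C1qa, C1qb, Aif1 and Tyrobp runs from 0.56 to 0.87. On the right Csf1r and C1qb correlate at 0.92 and Csf1r and Cx3cr1 at -0.94, with mutant cocaine replicate 5 among the 6.

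The mean standardised deviation of the 8 genes was taken as a profile for each Arabic-numbered animal. So that no gene was set against itself, each member was compared with the mean of the other 7. Tyrobp (r = 0.82), C1qa (0.79) and C1qb (0.67) had the highest values, and Trem2 (0.02) and Csf1r (0.11) the lowest, each gene by its brightest probe set alone. Among all other genes the 10 most like the profile of all 8 were Aldh7a1 (0.96), Timp3 (0.94), Arntl (0.93), Psmg3 (0.92), Gatad1 (0.92), Epb41l1 (0.92), Rxrg (0.91), Rock1 (0.91), Mrps2 (0.91) and Nrarp (0.91). In the 6 Roman-numbered arrays their r to the profile ran from -0.70 (Epb41l1) to 0.86 (Rock1). They were chosen as the highest among 7583 measured genes, so their r is a description. The profile also moved with the array median (r = 0.60 over 12 arrays), the mean of medium spiny neuron markers (0.56), the mean of endothelial markers (0.43) and the actin difference (-0.26). In the 6 Roman-numbered arrays these values were -0.50, -0.21, 0.73 and 0.37, and without mutant cocaine replicate 5 they were -0.41, 0.79, 0.86 and -0.85 over 5 arrays. With array medians subtracted, C1qa and Tyrobp correlated at r = 0.86 (exact permutation, adjusted p = 0.108), and with the actin difference regressed out at r = 0.91 (adjusted p = 0.0216). The part of the neuronal and endothelial markers was not tested.

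Other genes of the microglial pathways were followed through 10 lists, none of which includes the 8 genes. No gene of any list passed the threshold in any of the 7 comparisons. Values for named list genes are given as the averaged cocaine minus saline difference first and the averaged mutant minus control difference after it, and the 2 brightest genes of each list are named.

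For the CSF1 receptor axis 7 of 11 genes were measured, with a median cocaine difference of -0.04. The transcription factor gene Mef2c, which neurons also express, gave -0.08 ± 0.06 and 0.10 ± 0.05, and Cbl, a ubiquitin ligase gene, -0.09 ± 0.21 and 0.08 ± 0.18. Of 15 genes around DAP12 signalling 4 were measured, with a median of 0.01. Apoe, an abundant astrocyte gene for a lipid carrier, gave -0.06 ± 0.06 and -0.02 ± 0.05, and the Fc receptor gene Fcgr2b -0.02 ± 0.09 and 0.06 ± 0.07.

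For fractalkine and purine sensing 5 of 10 genes were measured, with a median of 0.11. Cx3cl1, the neuronal ligand of CX3CR1, gave 0.01 ± 0.05 and 0.02 ± 0.04, and Gnai2, a G protein subunit gene, 0.19 ± 0.12 and 0.24 ± 0.11. The complement list had 5 of 18 genes measured and a median of 0.01. C1qc, the third chain of C1q, gave 0.20 ± 0.11 and 0.03 ± 0.09, and Cd59a, an inhibitor of the membrane attack complex, 0.15 ± 0.17 and -0.01 ± 0.14.

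Lysosomal genes were measured for 13 of 15, with a median of 0.04. Cst3, the cathepsin inhibitor cystatin C, gave -0.01 ± 0.04 and -0.02 ± 0.04, and Ctsb, cathepsin B, 0.01 ± 0.03 and 0.03 ± 0.03. In this list 11 of 13 genes had r above 0 to the members' profile, against 53.3% of all genes measured. The highest was Hexa at 0.90, a hexosaminidase subunit gene named here after its value was seen. In the 5 Roman-numbered arrays other than mutant cocaine replicate 5 it was 7 of 13, against 48.5% of all genes. By the same count 5 of 9 homeostatic microglia markers (median r 0.13) and 6 of 12 genes of disease-associated microglia (median 0.08) had r above 0 in the Arabic-numbered arrays.

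Homeostatic microglia markers were measured for 9 of 15, with a median cocaine difference of 0.18 and 8 of 9 above 0, against 53.7% of all genes measured. Tgfbr1, a TGF-beta receptor gene, gave 0.06 ± 0.07 and -0.07 ± 0.06, and Selplg, a P-selectin ligand gene, 0.20 ± 0.10 and 0.12 ± 0.09. Of the 9, Tmem119 (0.34 ± 0.12, unadjusted p = 0.0106, adjusted p = 0.836 in limma) and Crybb1 (0.20, unadjusted p = 0.0351) were under an unadjusted p of 0.05 for averaged cocaine, against 5.08% of all genes. The 1 gene below 0 was P2ry12, a purine receptor gene, at -0.28 ± 0.22 on average and -0.48 ± 0.29 in mutant mice (adjusted p = 0.863 and 0.673). These 3 genes are named after their values were seen. Over all genes measured the median was 0.01.

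Of 30 genes expressed across myeloid cells 15 were measured, with a median of 0.07. Coro1a, an actin regulator of leukocytes, gave -0.06 ± 0.07 and 0.03 ± 0.06, and Laptm5, a lysosomal membrane protein gene, 0.11 ± 0.12 and 0.05 ± 0.11. The inflammatory list had 2 of 20 genes measured. Nfkbia, the inhibitor of NF-kappa-B that many cell types induce, gave 0.43 ± 0.15 (adjusted p = 0.839) and 0.04 ± 0.13, and Ptgs2, the gene of cyclooxygenase-2, which neurons also express, 0.28 ± 0.21 and -0.24 ± 0.18. Genes raised in disease-associated microglia were measured for 12 of 18, with a median of 0.01, and Fth1, a ferritin subunit gene, gave 0.01 ± 0.03 and -0.01 ± 0.03. Antigen presentation had 3 of 10 measured and a median of 0.15. B2m, the light chain of class I molecules, gave 0.26 ± 0.13 and -0.06 ± 0.11, and H2-D1, a heavy chain, 0.14 ± 0.12 and 0.03 ± 0.10.

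Markers of other cells that could carry the same transcripts were also read, as sums over different probe sets that are not compared between lists. Of 8 border macrophage markers 1 passed the filter and 7 had a median under 4, and the log2 of their summed level ran from 5.87 to 6.06 in mutant cocaine, 5.72 to 5.89 in control cocaine, 5.86 to 5.91 in mutant saline and 5.74 to 6.08 in control saline arrays. Of 8 monocyte and neutrophil markers 1 passed and 7 had a median under 4, with summed levels of 5.47 to 5.92 in mutant cocaine, 5.45 to 5.80 in control cocaine, 5.54 to 5.69 in mutant saline and 5.73 to 5.97 in control saline arrays. Of 6 lymphocyte markers 1 passed, Cd4, which ran from 8.42 to 9.10 over the 18 arrays, and the other 5 had a median under 4. The summed lymphocyte level was 8.67 to 9.16 in mutant cocaine, 8.52 to 9.04 in control cocaine, 8.90 to 9.05 in mutant saline and 8.95 to 9.11 in control saline arrays. Neither of 2 red blood cell markers passed. The part of these cells in the microglial values was not tested. All 7 medium spiny neuron markers on the array passed the filter, as did all 9 astrocyte and all 7 oligodendrocyte markers and 6 of 10 endothelial markers, and none of them was past the threshold in the 7 comparisons.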

How the data were processed

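Biotin-labelled cRNA from 2 ug of striatal total RNA was hybridised to Affymetrix arrays, 1 per animal, per the labels' protocols. The deposited table holds log2 expression values, which the authors computed with GCRMA in R 2.4.1 per the submitters' processing notes. GCRMA corrects background by probe sequence, equalises array distributions and summarises probe sets, so a change in total signal is removed and dim values are compressed. The precision is limited by the number of arrays. Probe sets were named through the platform annotation.

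From these values, 64 control probe sets were left out and the filter (above 4 in at least 3 arrays) was applied. Limma 3.58.1 in R 4.3.3 was fitted with the 4 groups and the numbering series, an intensity trend and Benjamini-Hochberg adjustment over 12674 probe sets, with 13 residual degrees of freedom. Pair correlations used 1296 exact permutations within groups, in Python 3.11.15 with numpy 2.4.6. Both procedures were tested on simulated data. The p-values were computed against the spread between these animals. The labels do not say how the animals were batched, so an unknown batch may enter both the estimates and their p-values. Blocks of consecutive animal numbers, each with an animal of every group in its series, were not removed before the pair correlations. The permutations treat animals of a group as exchangeable, and the part of such blocks in the correlations was not tested.

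Every member probe set and Camk4 is named, with up to 4 genes past the threshold from each of 10 lists or otherwise the 2 brightest, and the 10 genes most like the members' profile. Markers of 8 other cell types (border macrophage, monocyte and neutrophil, lymphocyte, red blood cell, astrocyte, oligodendrocyte, endothelial, medium spiny neuron) were also followed. The members, lists and tests were chosen with earlier results of these data known. Alternatives covered the series term, blocks, weights, the actin covariate, filters, scaling, threshold and each array left out.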

Additional observations from a re-analysis of the deposited data

Results flagged for a closer look

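Of 28 groups of 6 cocaine arrays examined (14 probe sets, mutant and control), 3 held an array whose gap to its nearest neighbour was large against the group's range, by Dixon's 95% critical value of 0.625. That value is set to flag about 1 in 20 groups by chance, which is not a background measured on these arrays. The share of all probe sets flagged in the same groups was not counted, so the 3 cannot be called unusual. Mutant cocaine replicate 5 held the highest or lowest value of all arrays for 45.1% of probe sets above the filter. Csf1r 1419872_at was 11.08 in mutant cocaine replicate 5, above the other 17 arrays. The same probe set was 10.92 in control cocaine replicate 2. Cx3cr1 1450020_at was 7.55 in mutant cocaine replicate 5, below the 8.24 to 8.79 of the others.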

How the results depend on the processing

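The count of microglial probe sets past the threshold was 0 in all 7 comparisons under each of the 30 alternatives, over 11 to 14 probe sets tested. The smallest adjusted p of any member in any alternative was 0.142, for C1qb 1437726_x_at in mutant mice without mutant cocaine replicate 5. Under these alternatives that cocaine difference stayed between 0.28 and 0.52, and the Tyrobp mutant minus control difference after cocaine between 0.12 and 0.24. The reported fit held neither replicate numbers nor consecutive animal numbers as a block. Deviations of 21 same-numbered replicate pairs correlated at a mean of 0.04 (lowest -0.23), against -0.02 between different numbers. Of 18 arrays 8 were closest to their own number. Within blocks of consecutive animal numbers the mean was 0.08 (lowest -0.23), against -0.04 between different blocks. Of 18 arrays 10 were closest to their own block. For both counts the closest array was sought only among other groups of the same numbering series. The number to be reached by chance was not computed, so neither count can be called high or low. Whether either number pairs the animals was not tested. With either block as a term the count was again 0 in every comparison. With the replicate block 4 members were under an unadjusted p of 0.05 in limma for cocaine in mutant mice, against 2 in the analysis reported. The share of all probe sets under that p was 6.95% in the analysis reported. It was not counted with the block, so the 4 cannot be set against a background. The count of correlated pairs, 1 in the analysis reported, was 0 with all 18 arrays or with 17, 0 with array medians subtracted and 0 with Spearman's rho. It was 0 with each animal left out, where the 432 permutations let a single pair reach no adjusted p below 0.0648, so those counts say nothing about stability. With the mean over probe sets it was 3, of which 1 was C1qa and Tyrobp. It was 1 with actin regressed out, the same pair, and 1 with only the overall mean removed, which was another pair. Pearson's r of C1qa and Tyrobp lay between 0.71 and 0.92 in these settings. The smallest p that the permutations of 12 animals allow is 0.0008. Signal over background limits Trem2, close to the filter, and the 2 probe sets under it.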
